A study of Mus musculus with 6 samples.

Results

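The transcripts described here are those of 8 chemokines, Cxcl1, Cxcl2, Cxcl3, Ccl2, Ccl3, Ccl4, Ccl6 and Ccl9, and of the cytokines tumour necrosis factor (Tnf) and oncostatin M (Osm). They were taken by gene symbol, which gave 14 probe sets for the 10 genes, of 45037 probe sets and 18193 named genes on the array. Neutrophils from the blood of mice on a C57 background, wild type or null for phd3, were held at 3% oxygen for 4 h. Both genotypes were hypoxic and no array of cells at normal oxygen was analysed here. There were 6 Affymetrix arrays, 3 of each genotype, and per the labels each mouse was processed on its own after negative magnetic selection. The labels do not say which part of phd3 was deleted or whether the deletion was limited to any cell type. Same-numbered samples of both genotypes share a code in the source labels and are called pairs 1 to 3.

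Chemokines are small secreted proteins that bind G protein-coupled receptors and draw leukocytes along a gradient. The CXC chemokines CXCL1, CXCL2 and CXCL3 act on CXCR2 and attract neutrophils, while CC chemokines such as CCL2, CCL3 and CCL4 attract monocytes, lymphocytes and other cells through CC chemokine receptors such as CCR1 and CCR2. Neutrophils make several of these themselves when stimulated, along with TNF and oncostatin M. Several of the genes, though not all, are textbook targets of NF-kB whose messages decay rapidly. The deleted gene, phd3 (symbol Egln3), codes for a prolyl hydroxylase that uses oxygen and belongs to the enzymes marking hypoxia-inducible factor for destruction.

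The genes lie in groups. In the RefSeq table of GRCm38.p6, Cxcl1 and Cxcl2 are neighbours on chromosome 5 with 0 coding genes between them, and Cxcl3 lies 1 coding gene away from Cxcl1. On chromosome 11, Ccl9, Ccl6, Ccl3 and Ccl4 follow each other with 0 coding genes between neighbours, and Ccl2 lies 31 coding genes from Ccl9. Osm is elsewhere on chromosome 11 and Tnf is on chromosome 17. RefSeq promoter sequences were found for 7 of the 10 genes, all but Ccl2, Ccl4 and Osm. The 6 that belong to the gene groups on chromosomes 5 and 11 are shown because their members are compared with each other below. Each is the 160 bases before the transcription start, 5′ to 3′ on the gene's strand, with matches to an NF-kB-type motif on either strand in capitals. The motif searched was GGG, then any 3 bases, then TTCC, or the reverse complement of this.
Cxcl1 (chr5:90891085-90891244, plus strand): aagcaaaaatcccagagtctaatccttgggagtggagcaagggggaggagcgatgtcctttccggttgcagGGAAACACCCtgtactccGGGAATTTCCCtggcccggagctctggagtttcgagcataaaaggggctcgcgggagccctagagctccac
Cxcl2 (chr5:90903739-90903898, plus strand): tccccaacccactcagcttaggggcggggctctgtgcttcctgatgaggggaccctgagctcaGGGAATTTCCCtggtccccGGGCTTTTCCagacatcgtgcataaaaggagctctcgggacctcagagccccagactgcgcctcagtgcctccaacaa
Cxcl3 (chr5:90785941-90786100, plus strand): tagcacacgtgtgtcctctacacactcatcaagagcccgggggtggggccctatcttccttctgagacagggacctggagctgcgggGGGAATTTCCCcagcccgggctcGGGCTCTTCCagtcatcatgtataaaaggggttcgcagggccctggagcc
Ccl3 (chr11:83649379-83649538, minus strand): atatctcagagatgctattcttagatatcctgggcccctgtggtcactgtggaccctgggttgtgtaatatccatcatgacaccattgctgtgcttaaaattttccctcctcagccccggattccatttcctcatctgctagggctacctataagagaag
Ccl6 (chr11:83593088-83593247, minus strand): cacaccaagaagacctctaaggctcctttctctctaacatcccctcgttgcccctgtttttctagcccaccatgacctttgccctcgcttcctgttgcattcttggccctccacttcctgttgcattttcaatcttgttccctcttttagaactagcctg
Ccl9 (chr11:83578637-83578796, minus strand): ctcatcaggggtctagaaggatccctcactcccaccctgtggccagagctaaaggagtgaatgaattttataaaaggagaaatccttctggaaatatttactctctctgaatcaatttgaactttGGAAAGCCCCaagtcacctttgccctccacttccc
The 3 CXC promoters each held 3 matches within 250 bases before the start, of which 2 were overlapping reads of 1 near-palindrome. The forward read of it, GGGAATTTCC, began 71 bases before the start in Cxcl1, 97 in Cxcl2 and 73 in Cxcl3. Ccl9 held 1 match, GGAAAGCCCC, and Ccl3, Ccl6 and Tnf held 0. The motif occurred in 4.6% of 32851 RefSeq promoter windows of this length. The hypoxia-response core ACGTG, searched on both strands, occurred in Cxcl1 and Cxcl3 and in 16.6% of all windows. The TATA motif TATAAA occurred in Cxcl3, Ccl9 and Tnf and in 12.4%, and the AP-1 motif TGANTCA in Ccl9 and in 6.7%. Matches of different motifs did not overlap. These matches describe letters in a window and are no evidence of binding.

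The deposited value of a probe set is its MAS5 signal, a linear intensity scaled per array. Median signals were 49.4 to 64.2 over the 6 arrays, and array number limits the precision of everything below. The 2 arrays of pair 3 had lower median correlations with the other arrays (0.740 and 0.771 against 0.794 to 0.812 for the other 4), and lower signal of the hypoxia-induced gene Bnip3, at 195.7 and 202.3 against 2575.4 to 4817.4. The targeted gene followed the labels: Egln3 was at 87.2, 29.6 and 73.5 in the phd3 null arrays and at 2088, 1733.9 and 327 in the wild-type arrays. The neutrophil markers S100a8 (11102.8 to 25479.7) and Csf3r, the G-CSF receptor gene (1281.9 to 5118.4), were bright on every array. So was the monocyte marker Csf1r, the macrophage colony-stimulating factor receptor gene, at 3537.6 to 11088.3. Other markers of both cell types were much dimmer, such as the neutrophil marker Camp (79.2 to 203.9) and the macrophage marker Mrc1 (22.4 to 121.8). Which cells supplied the chemokine transcripts cannot be read from bulk RNA, where fewer cells of a type and less RNA per cell cannot be told apart.

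In the comparison of phd3 null with wild type, 9 of the 10 genes had a log2 difference below 0, but none was called different by limma. The call rule was an adjusted p under 0.05 over the 10960 genes tested, on log2(signal + 16) and using the brightest probe set of each gene, and it called 0% of all genes. Ccl3, Cxcl2 and Osm were lower in the phd3 null sample of every pair. The 10 genes passed the filter on dim genes, and their median log2 difference was -0.43, against -0.01 over all genes tested. The median was -0.29, -0.31 and -0.39 in pairs 1 to 3. Below 0 were 50.6% of all genes, and 13% were lower in 3 of 3 pairs, while 0 members and 12.6% of all genes were higher in 3 of 3. In 10 of 10 members the values of the groups overlapped, where 3.02% of all genes were without overlap and lower and 3.90% without overlap and higher. The shared direction is given as a description, since results of these arrays were known when the genes were chosen. Leaving out wild-type sample 1 moved the median to -0.14 and leaving out phd3 null sample 3 to -0.22, while removing phd3 null sample 1 gave -0.66 and removing wild-type sample 3 gave -0.69.

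**Figure D1:**
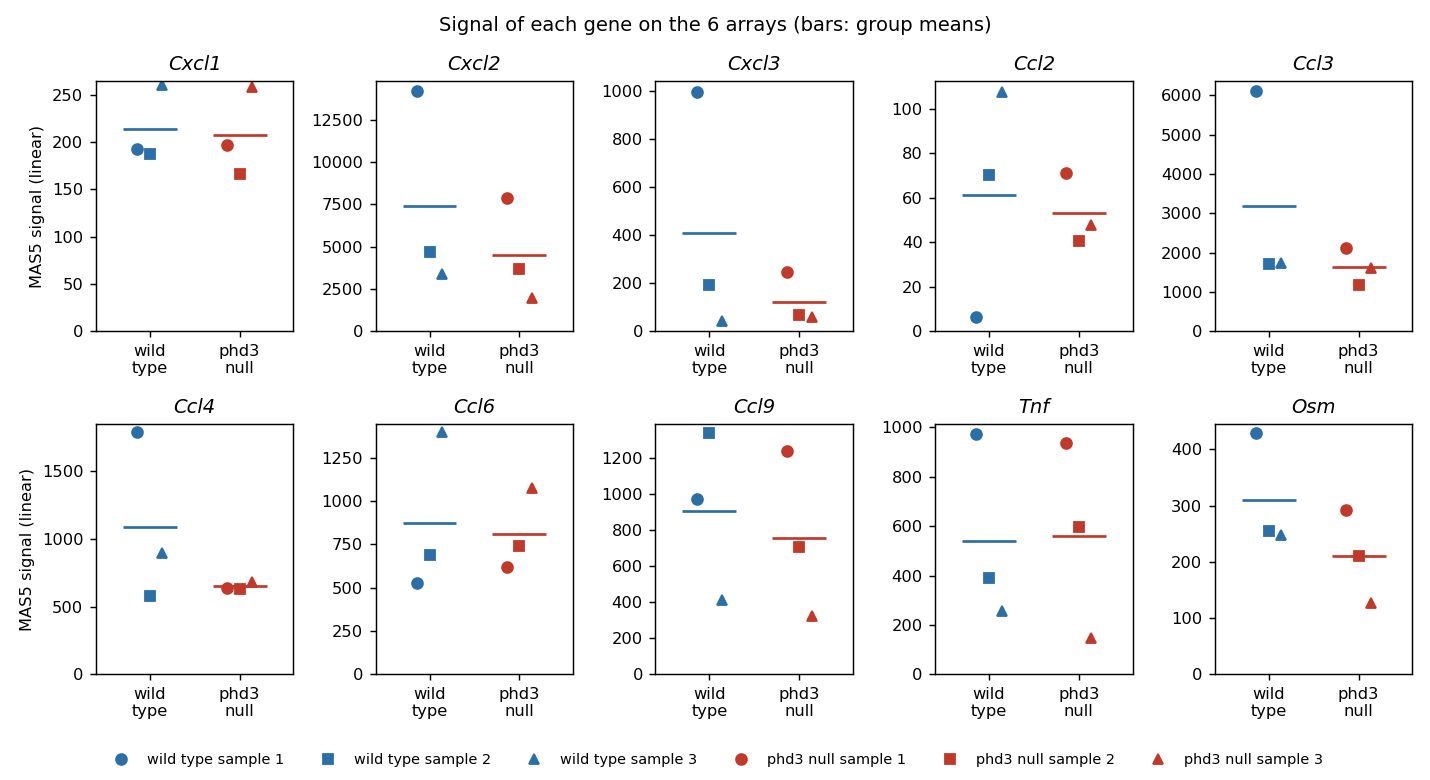
MAS5 signal (linear axis from 0) of the brightest probe set of each of the 10 genes in 3 wild-type and 3 phd3 null samples, with the marker shape giving the sample number and the bar the group mean. Wild-type sample 1 is the highest point for Cxcl2, Cxcl3, Ccl3, Ccl4, Tnf and Osm, and both triangles (sample 3) are low for Cxcl2, Cxcl3, Ccl9 and Tnf.

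Among the neutrophil-attracting CXC chemokines, Cxcl2 was bright on every array. Across pairs 1 to 3 its signal was 7839.7, 3660.2 and 1957.4 in phd3 null, compared with 14166.1, 4686.8 and 3388.7 in wild type. The order of the samples was the same in both genotypes, with sample 1 highest and sample 3 lowest, and the groups overlapped. Mean signal was 4486 ± 3027 without phd3 and 7414 ± 5884 with it (SD, n = 3), and the fitted log2 difference was -0.66 (SE 0.64, 95% interval -2.09 to 0.76). Within pairs it was -0.85, -0.36 and -0.79, so the spread between pairs was smaller than that within a genotype. Without wild-type sample 1 the difference was -0.06.

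Cxcl3 spanned a 24.1-fold range of signal, the widest of the 10 genes. It was at 246.4, 66 and 58.3 in phd3 null and 993.9, 192.3 and 41.3 in wild-type samples 1 to 3. Wild-type sample 1 lay far above the rest, and the order of genotypes turned around in pair 3, where both signals were below their array's median. The log2 difference was -0.97 (SE 0.91, 95% interval -3.01 to 1.07), with pair values of -1.94, -1.34 and 0.37. Without wild-type sample 1 the sign changed, to 0.10. Without wild-type sample 3 it was -1.97.

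For Cxcl1, the other CXCR2 ligand of the group, the 3 probe sets differed in brightness and in profile over the samples. The fitted genotype difference of each was smaller than its SE. The brightest, with the suffix x that Affymetrix gives to probe sets whose probes may also match other transcripts, was at 197, 166.6 and 257.9 in phd3 null and 193.1, 187.5 and 259.9 in wild type. These values were almost the same in the genotypes and gave a log2 difference of -0.05 (SE 0.32, 95% interval -0.76 to 0.67). The probe set annotated to the RefSeq transcript was dim, at 53.7, 30.6 and 47.5 in phd3 null and 140.7, 4.6 and 47.1 in wild type. It fell just under the filter, exceeded the array median on 2 of 6 arrays and gave a log2 difference of 0.006 (SE 0.74). The remaining one gave -0.17 (SE 0.42), with its highest signal, 247.2, in wild-type sample 1. The dim and the remaining probe set both had their top value in that sample, as Cxcl2 and Cxcl3 did, and the brightest did not.

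The CC chemokine Ccl3 (MIP-1 alpha, a ligand of CCR1) was at 2108.5, 1168.1 and 1597.2 in phd3 null and 6115.1, 1717.1 and 1745.3 in wild-type samples 1 to 3. In wild type, 1 of the 3 samples was over 3 times as bright as the other 2, which lay inside the phd3 null range. The means were 1625 ± 471 and 3193 ± 2531 (SD, n = 3), with a log2 difference of -0.74 (SE 0.52, 95% interval -1.89 to 0.42). The pair values were -1.53, -0.55 and -0.13, all lower in phd3 null and unequal in size. Without wild-type sample 1 the difference was -0.13.

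Ccl4 (MIP-1 beta), the neighbour of Ccl3, had a similar profile. It was nearly constant in phd3 null, at 636.9, 632.9 and 677.6, and varied in wild type, at 1783.9, 574.9 and 896.6. Sample 2 of the wild type lay below all 3 phd3 null samples, so the groups overlapped. The log2 difference was -0.57 (SE 0.41, 95% interval -1.50 to 0.35), with pair values of -1.46, 0.14 and -0.40, and -0.14 without wild-type sample 1.

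The other CC chemokine genes of the chromosome 11 group did not share this profile. Ccl6, which encodes a CCR1 ligand of rodents, was at 620.8, 739.5 and 1072.8 in phd3 null and 525.2, 686.6 and 1398.5 in wild-type samples 1 to 3. Sample 3 was highest in both genotypes, and the difference was -0.01 (SE 0.42, 95% interval -0.95 to 0.92). Its second probe set gave -0.00 (SE 0.44), again with sample 3 on top in both genotypes. The sign for the brighter probe set turned with quantile normalization (0.049) and with array quality weights (0.017).

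Ccl9, which also encodes a CCR1 ligand, was at 1239.2, 707.4 and 324.2 in phd3 null and 973.1, 1339.3 and 411.7 in wild type. Here sample 3 was lowest in both genotypes. The difference was -0.30 (SE 0.55, 95% interval -1.54 to 0.95), with pair values of 0.34, -0.91 and -0.33, and 0.20 without phd3 null sample 3. The second probe set of Ccl9 was lower in 3 of 3 pairs, by -0.17, -0.79 and -0.42, and its fitted difference was -0.46 (SE 0.41). Ccl2 (MCP-1), the main CCR2 ligand, was dim: 70.9, 40.3 and 47.8 in phd3 null and 6.2, 70.3 and 107.3 in wild type, above the array median on 3 of 6 arrays. Its difference of 0.13 (SE 0.69, 95% interval -1.41 to 1.68) became -0.013 with a pseudocount of 64, so no direction can be read.

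Tnf was at 936.1, 598.4 and 149.3 in phd3 null and 971.7, 388.8 and 254.7 in wild-type samples 1 to 3. Sample 1 was highest and sample 3 lowest in both genotypes, and the genotypes had almost the same mean, 561 ± 395 against 538 ± 381 (SD, n = 3). The log2 difference was -0.05 (SE 0.67, 95% interval -1.56 to 1.45), with pair values of -0.05, 0.60 and -0.71. It ran from -0.58 without phd3 null sample 1 to 0.68 without phd3 null sample 3, and array quality weights gave 0.26. The 95% interval above ignores the pairs and leaves room for a difference of more than 1 log2 unit in either direction. When pairs were taken into account, the 95% interval for Tnf was narrower, at -0.61 to 0.50, unadjusted for the number of genes.

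Osm encodes a cytokine of the interleukin-6 family that signals through gp130. Its signal was 293.1, 209.8 and 126.9 in phd3 null and 429.7, 255.6 and 247.6 in the numbered wild-type samples. The highest phd3 null value lay above the lower pair of wild-type values, which is all that kept the groups from separating. The means were 209.9 ± 83.1 and 311 ± 103 (SD, n = 3), with a log2 difference of -0.56 (SE 0.39, 95% interval -1.42 to 0.31). The pair values were -0.53, -0.27 and -0.88, and leaving out any 1 array kept the fitted value between -0.82 and -0.26.

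**Figure D2:**
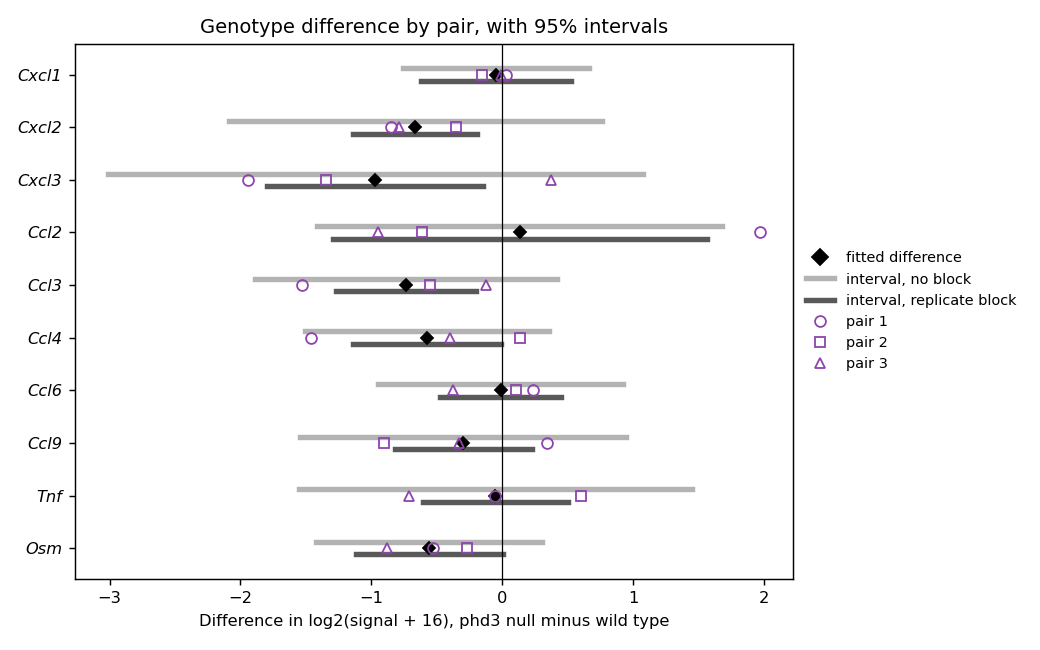
Difference in log2(signal + 16), phd3 null minus wild type, for each gene, with the fitted value (diamond), the value in each of the 3 pairs (open symbols) and 95% intervals of the limma fits without and with the replicate number as a block. Without the block every interval spans 0; with it those of Cxcl2, Cxcl3, Ccl3 and Ccl4 lie below 0, unadjusted for the number of genes.

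With the replicate number as a block, the standard errors of all 10 genes were smaller, among them Cxcl3 (0.91 without the block, 0.39 with it), Cxcl2 (0.64 and 0.22) and Tnf (0.67 and 0.26). With the 6 arrays the block changed no member's call, while over all genes limma called 0 without it and 2 with it, Egln3 and Ptgr1, a prostaglandin reductase gene. The adjusted p was 0.787 for Cxcl2 and Ccl3, 0.833 for Cxcl3 and 0.883 for Ccl4 and Osm, against 0.9996 for each without it. At an unadjusted limma p under 0.05, the count went from 0 of 10 members without the block (1.74% of all genes) to 4 with it (5.62% of all genes). These were Cxcl2, Cxcl3, Ccl3 and Ccl4, all lower. Over all genes, 3.07% were lower at that threshold with the block and 0.703% without it, and 0.0182% were called at an adjusted p under 0.05 with the block. Among the 14 probe sets, tested with every other probe set, 0 were called in either fit, against 0.0133% of all probe sets with the block. Cxcl3 passed in the paired fit when an array of pair 3 was left out, with a log2 difference of -1.64 and an adjusted p of 0.00354 without wild-type sample 3 and 0.00422 without phd3 null sample 3. Such a fit rests on pairs 1 and 2 alone, and the same removal without the block did not call Cxcl3. Over all genes, paired fits without 1 array called up to 66, against 2 with the 6 arrays. The count for each removal is given below.

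Differences by sample number were larger than those by genotype for several genes. Both samples of pair 3 were below the other 4 arrays in 4 of the 10 genes, Cxcl2, Cxcl3, Ccl9 and Tnf, and above them in 2, Ccl6 and Cxcl1. For Cxcl1 this held for the brightest probe set and not for its others. Over all genes tested, 16.9% were below and 18.5% above in this way, so sample 3 stood apart in much of the transcriptome. Relative to samples 1 and 2 of its own genotype, sample 3 had a log2 difference for Tnf of -2.21 (phd3 null) and -1.22 (wild type). For Ccl9 the values were -1.49 and -1.44, and for Cxcl2 -1.45 and -1.26. Cxcl3 gave -0.98 in phd3 null and fell further in wild type, to 41.3 from 993.9 and 192.3. Ccl6 was higher by 0.65 and 1.20. Ccl3 and Ccl4 in phd3 null hardly moved, at 0.02 and 0.09. Ccl6 and Ccl9, adjacent genes, therefore went opposite ways in sample 3 of both genotypes. These comparisons by number were chosen after the values were seen and were not tested.

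**Figure D3:**
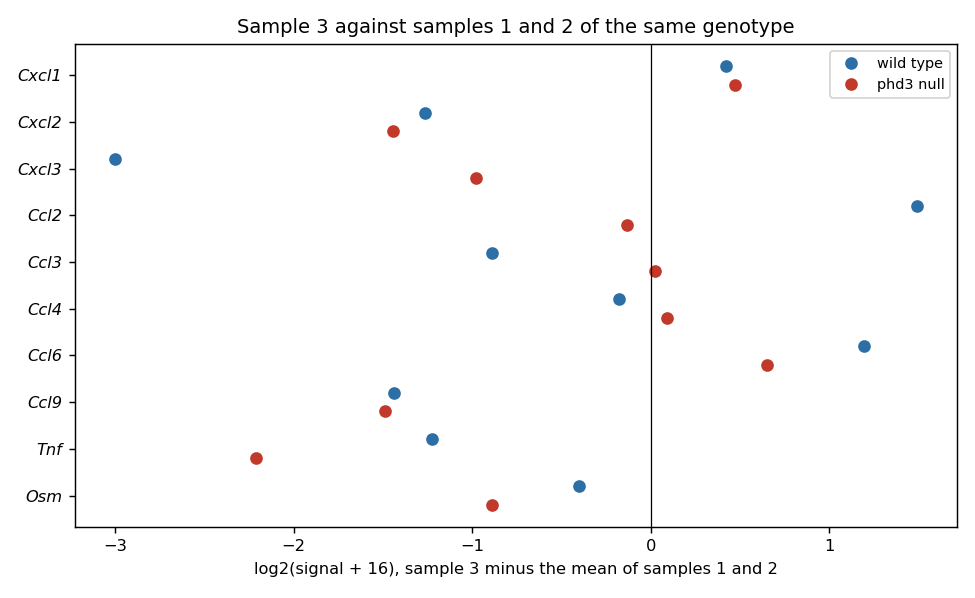
Sample 3 minus the mean of samples 1 and 2 of the same genotype, in log2(signal + 16), for each gene, 1 point per genotype. Tnf, Ccl9, Cxcl2, Cxcl3 and Osm lie left of 0 in both genotypes, and Ccl6 and Cxcl1 lie right of 0 in both.

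Markers of other cells moved with sample number too. The summed signal of 11 monocyte and macrophage markers was 7036.9 and 7968.1 in the pair 3 samples against 19830.1 to 20524.9 in the other 4. Most of this sum came from Csf1r and from F13a1, a coagulation factor gene of monocytes, which was at 455.1 and 474.9 against 4135 to 6879.1. Of the 10 monocyte markers tested, 5 had both pair 3 samples below the other 4 arrays and 2 had them above, Nr4a1 (1137.4 and 1320.5 against 256.4 to 1071.5) and Fcgr4 (166.3 and 176 against 62.6 to 154.5). The sum of 12 neutrophil markers was 26587.2 and 45299.2 against 46109.1 to 63271.2, and Cxcr2, the receptor for the CXC chemokines here, was at 25.6 and 227 against 558.9 to 978.9. B cell markers went the other way, with 11 genes summing to 5652.9 and 6892.4 against 619.1 to 1470.7. Sums of 11 natural killer cell markers were 818.2, 3788.5 and 2912.8 in phd3 null samples 1 to 3. In wild-type samples 1 to 3 they were 1711.7, 8122.6 and 4483.3. Hspa1a, which codes for an inducible HSP70 chaperone, had signals of 1157.9 and 1175.1 in pair 3 against 67.2 to 171.3. The ratio of 3′ to 5′ signal of the Gapdh control probe sets, a sign of RNA integrity, was 0.659 and 0.773 in pair 3 and 0.726 to 0.805 in the others. None of these lists had a marker at 0, and their part in the chemokine values was not tested.

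**Figure D4:**
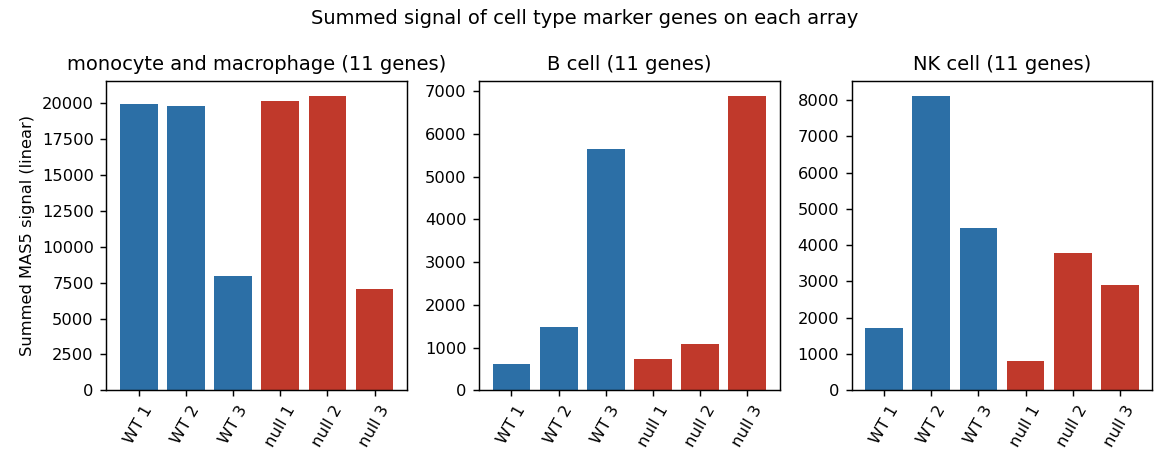
Summed MAS5 signal (linear axis from 0) of monocyte and macrophage, B cell and natural killer cell marker genes on each array, 1 bar per sample. Monocyte sums are lowest and B cell sums highest in sample 3 of both genotypes, and natural killer sums are highest in wild-type sample 2.

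Basophils also make CCL3 and CCL4. Of 9 basophil and mast cell markers on the array 2 were bright enough to be tested. The sum of the 9 was 1493.8, 1195.4 and 1385.5 in phd3 null and 2643.7, 1204.2 and 2593.8 in wild-type samples 1 to 3, most of it from Hdc, the histidine decarboxylase gene. Wild-type samples 1 and 3 had the highest sums. In wild-type sample 1 and phd3 null sample 1, Hdc was at 2414.3 and 1230.8 and Gata2 at 148.7 and 58.2. Cd200r3 was at 20.7 and 9.8 and Cpa3 at 7.2 in both. Lower in the wild-type sample were the basophil protease gene Mcpt8 (3.3 and 35.2), Il13 (7.2 and 11.9) and Il4 (6.8 and 27.2). So were Fcer1a, the IgE receptor alpha chain gene (7.7 and 59.3), and Ms4a2, its beta chain gene (27.8 and 54.2). All but Hdc and Gata2 were too dim to be tested. The part of these cells in the result was not tested.

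Wild-type sample 1 was the highest of the 6 arrays for 6 of the 10 genes, against 15.0% of all genes. It exceeded every other array by at least 1 log2 unit in 2 of them, Cxcl3 (1.94) and Ccl3 (1.53), as it did in 0.255% of all genes, 28 in number. Ccl4 just missed that margin at 0.98, and Cxcl2 was above the next array by 0.85. For Ccl2 the same sample was the lowest, at 6.2. Its monocyte, B cell and natural killer sums given above lay within or below those of the other samples, and its sum of neutrophil markers, 63271.2, was the highest of all. Its 3′ to 5′ Gapdh ratio was 0.728.

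Likeness of profile was measured as the root-mean-square difference of log2(signal + 16) over the 6 arrays after centring each gene on its own mean. Among 10959 other genes, Ccl4 was the 8th nearest to Ccl3, at 0.35 log2 units, and the nearest 3 were Pts (0.21), Phlda1 (0.26) and Mreg (0.30). The genes nearest to Cxcl2 were Tank, an NF-kB regulator gene (0.13), Olr1, the oxidized LDL receptor gene (0.24), and Slc15a3, an oligopeptide transporter gene (0.24). Tnf, at 0.43, was the 70th nearest to Cxcl2. Osm was the 107th nearest to Cxcl2 and the 92nd nearest to Ccl3. The genes nearest to Tnf were Sh2b2, an adaptor protein gene (0.07), Tnfaip2, a TNF-induced gene (0.18), and Bri3 (0.19). Cxcl1, next to Cxcl2 in the genome, ranked 5558 of 10959 by this measure, and Ccl2 and Ccl6 ranked 10117 and 9035. The rank of Cxcl1 rests on its brightest probe set, the one with the suffix x, and its other probe sets were not ranked.

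The rest of the chemokine family was mostly dim. Of 28 other chemokine genes listed 27 were on the array and 13 were bright enough to be tested, of which 0 were called in either fit, 8 had a difference below 0 and the median was -0.11. Ccl5 (RANTES), made by T and natural killer cells, was at 255.7, 522.2 and 1002.4 in phd3 null and 230.9, 1274.1 and 1571.8 in wild-type samples 1 to 3, with a difference of -0.59 (SE 0.71). It was lowest in sample 1 of both genotypes, where Ccl3 was highest. Cxcl13, a B cell chemokine, had groups that did not overlap and differed by 0.79 (SE 0.45), the platelet chemokine Pf4 by -0.76 (SE 0.69) and Cxcl17 by -0.44 (SE 0.63).

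Of 13 receptor genes 11 were on the array and 8 were tested, with 0 called, 4 below 0, 4 above 0 and a median of -0.07. Il6st, which encodes the gp130 subunit used by oncostatin M, differed by 0.63 (SE 0.41), Osmr by 0.44 (SE 0.51), the decoy receptor gene Ackr1 by -0.41 (SE 0.70) and Cxcr2 by -0.58 (SE 1.06). Ccr1, a receptor of CCL3, CCL6 and CCL9, was at 1579.3, 1959.9 and 429 in phd3 null and 1900.5, 1168 and 855.2 in wild type, again lowest in sample 3.

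For TNF processing and receptor signalling, 13 genes were tested and 0 were called, with 6 below 0 and 7 above 0. Rhbdf2, which encodes the iRhom2 partner of the TNF-releasing protease ADAM17, was at 172.5, 134.3 and 68.4 in phd3 null and 20, 101.3 and 27.5 in wild type. Higher in every pair, it differed by 1.23 (SE 0.55). Its relative Rhbdf1 differed by 0.96 (SE 0.49), Map3k7, the TAK1 kinase gene, by -0.73 (SE 0.31; groups without overlap) and Tab3, a TAK1-binding protein gene, by -0.56 (SE 0.38). Of 7 tested TNF superfamily ligands 0 were called and 5 were above 0. The Fas ligand gene Fasl differed by -1.01 (SE 0.60), Ltb, encoding lymphotoxin beta, by 0.42 (SE 0.59), Tnfsf10 by 0.32 (SE 0.37) and Tnfsf13b by 0.24 (SE 0.40).

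Genes that control these messages were not called either. Of 12 tested NF-kB subunit and inhibitor genes 6 were below 0 and 6 above 0 (median -0.02), while 9 of them had both pair 3 samples below the other 4 arrays. Nfkbib differed by -0.39 (SE 0.44), Ikbkg by -0.58 (SE 0.68), Relb by 0.39 (SE 0.57) and Nfkbia by -0.23 (SE 0.37). Of 13 tested regulators of AU-rich messages 5 were below 0 and 8 above 0 (median 0.01). Zc3h12a, whose RNase product degrades cytokine messages, was at 125.5, 167.9 and 113.5 in phd3 null and 288.2, 173.7 and 198.7 in wild type. Its groups did not overlap, with a difference of -0.63 (SE 0.33). Zc3h12c differed by -0.40 (SE 0.41), Tial1 by 0.29 (SE 0.30) and Tia1 by -0.54 (SE 0.71).

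Of 10 tested MAP kinase and CREB input genes 0 were called, with 5 below 0 and 5 above 0. Dusp1, whose phosphatase product limits p38 and JNK, had groups that did not overlap and differed by -0.90 (SE 0.37). Map3k8, encoding the TPL2 kinase that drives TNF production, differed by 0.47 (SE 0.32), Dusp2 by -0.68 (SE 0.61) and Cebpb by -0.55 (SE 0.54). Of 10 tested genes of the STAT3 pathway downstream of oncostatin M 0 were called and the median was 0.04. Il4ra, without overlap of groups, differed by 1.39 (SE 0.61). It was at 180.4, 113.1 and 145.7 in phd3 null and 5.3, 108.5 and 70.7 in wild-type samples 1 to 3. Its pair values of 3.20, 0.05 and 0.90 show that much of the difference came from the very low signal of wild-type sample 1. Tyk2 differed by -0.33 (SE 0.30), Socs3, a STAT3-induced inhibitor gene, by -0.37 (SE 0.35) and Pim1 by -0.19 (SE 0.31). Of 13 tested immediate early and heat shock genes 0 were called and 11 were below 0 (median -0.19). Egr1 was at 1295.4, 280 and 1186.9 in phd3 null and 3706.5, 385.4 and 1340.5 in wild type, highest in wild-type sample 1 as Ccl3 was, and differed by -0.71 (SE 0.80). Egr2 differed by -1.16 (SE 0.75), Egr3 by -0.71 (SE 0.78) and Atf3, without overlap of groups, by -0.38 (SE 0.30).

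Of 13 tested genes for other cytokines and growth factors 0 were called and 9 were below 0 (median -0.33). Il1a, encoding interleukin-1 alpha, was at 67.8, 88.3 and 5.9 in phd3 null and 174.8, 90.2 and 38 in wild type, a difference of -0.84 (SE 0.70). Il23a differed by -0.99 (SE 0.53), Il10 by -0.82 (SE 0.65) and Il12a by 0.78 (SE 0.62), all of them dim.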

How the data were processed

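The data were the deposited MAS5 signal intensities of 6 arrays, linear values that MAS5 (version not given in the sources used here) computed per probe set, per the submitters' processing notes. They were used as deposited. Detection calls did not enter, so low signals are not labelled as present or absent. Of 45101 probe sets 64 controls were left out. Probe sets were named from a platform annotation table (34945 with 1 symbol, 932 with several, 9160 unnamed here), and symbols were checked by gene ID against RefSeq GRCm38.p6, where 18032 of 18193 genes matched and 0 symbols changed. The files name no build, so this table gave names, gene order and promoters only.

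Each gene was represented by its brightest probe set. Genes were tested where their mean log2(signal + 16) reached 5.90, the median over probe sets other than controls, which left 10960. Genotypes were compared with limma 3.58.1 in R 4.3.3 (lmFit, eBayes with trend, two-sided, no block), with Benjamini-Hochberg adjustment over all genes. Fold changes are log2 differences on this scale, which understates those of dim genes. A second fit took all 45037 probe sets. An exact permutation test of 3 against 3 could not go below 0.1 and was not used.

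After subtraction of group means, the 2 arrays of a number correlated over genes at 0.292, 0.151 and 0.474. Arrays of different numbers correlated at -0.363 to 0.177. The value of 0.177, for phd3 null sample 2 with wild-type sample 1, was above the 0.151 of pair 2. Because the 2 arrays of a number also carry a common source code, differences are also given by pair, and an alternative fit used the number as a block. The main fit ignored the pairs, because the labels do not state a paired design. Standard errors and intervals come from that main fit unless the block is named. What the code stands for is not stated.

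The members, the lists and the named genes (up to 4 of smallest p in each list) were chosen with earlier results of these data known. The fits were tested on simulated data, in which 50 of the brighter genes were given each of several log2 differences. At -1, -2 and -3 the fit without the block called 0, 6 and 25 of the 50. With the block the counts were 0, 31 and 43. At a difference of 1 they were 0 without the block and 2 with it. A member that was not called may therefore still differ by 1 log2 unit. Alternatives changed the pseudocount, scaling, filter, probe set choice, prior, weights, block and arrays.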

Additional observations from a re-analysis of the deposited data

How the results depend on the processing

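With the 6 arrays, 0 of the 10 genes were called under any alternative tried, and Cxcl2, Ccl3, Ccl4 and Osm stayed below 0 in every alternative, removals of arrays included. Signs turned for Ccl2 with a pseudocount of 64 (-0.013, with or without the block), for Ccl6 with quantile normalization (0.049, with or without the block) and array quality weights (0.017), and for Tnf with array quality weights (0.26). When 1 array or 1 pair was left out, with and without the block, the log2 difference ran from -0.20 to 0.093 for Cxcl1, -1.18 to -0.06 for Cxcl2, -1.97 to 0.10 for Cxcl3, -0.78 to 0.68 for Ccl2, -1.04 to -0.13 for Ccl3, -0.95 to -0.13 for Ccl4, -0.31 to 0.39 for Ccl6, -0.78 to 0.20 for Ccl9, -0.58 to 0.68 for Tnf and -0.82 to -0.26 for Osm. Without the block the upper end for Ccl2 was 0.51. With the block, leaving out either array of a pair gave 1 value for both, since such a fit rests on the other 2 pairs. It was 0.0081 for Cxcl1 and 0.0068 for Ccl9 without pair 2, and 0.17 for Ccl6 and 0.27 for Tnf without pair 3. Why the pairs differed was not tested. Such removals gave 0 to 1 called members (Cxcl3), 0 to 66 called genes in all, and 0 to 1 in the lists of CXC members, other cytokines, MAP kinase inputs and immediate early genes, the higher counts coming from fits with the block: 11 and 7 called genes without sample 1 of phd3 null or wild type, 66 and 26 without sample 2, and 48 and 44 without sample 3. Without the block, leaving out wild-type sample 3 called 1. The replicate block called 2 genes, with a pseudocount of 1 also 2, with a pseudocount of 64 it called 4, with quantile normalization 1, with no filter 6 and with every probe set 6. Egln3 was called with the block at -3.85 (also with quantile normalization, no filter or every probe set), at -4.18 with a pseudocount of 1 and at -3.20 with a pseudocount of 64, and ran from -4.81 to -3.14 when arrays were left out (-3.60 without either array of pair 1, with the block). With the 6 arrays and the settings otherwise as in the report, Ptgr1 was the other gene called with the block, and no member or gene of the lists was. Dim signals, as for Ccl2 and the dim Cxcl1 probe set, set the limit for those genes.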

Other observations

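Of the 28 genes that exceeded every other array by at least 1 log2 unit in wild-type sample 1, 5 besides Cxcl3 and Ccl3 are given here. They were picked after their values were seen and stand for no theme, and other genes with a large margin, such as Egr3 (1.68), Trim9 (1.51), Plk2 (1.44) and Bmpr1a (1.34), encode other kinds of protein. Il1rn, encoding the interleukin-1 receptor antagonist, was at 4294.1 there against 265.5 to 1127.5 in the other 5 samples. Ccrl2, an atypical receptor gene for chemerin, was at 4204.8, with 1785.7 in phd3 null sample 1 as the next value. Csf1, the macrophage colony-stimulating factor gene, was at 1838.2, with 859.8 in phd3 null sample 1 as the next value. Slpi, a leukocyte protease inhibitor gene, was at 9032.8, with 4482.2 in wild-type sample 2 as the next. Cd274, encoding PD-L1, was at 1058.9, with 493.1 in phd3 null sample 1 as the next. In 4 of these 5 genes the next value came from the phd3 null sample of the same pair. Among Egr3, Trim9, Plk2 and Bmpr1a this held for Plk2 only (366.7). The next value was in phd3 null sample 3 for Egr3 (281.4), wild-type sample 2 for Trim9 (72.5) and wild-type sample 3 for Bmpr1a (93).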
